A study of Mus musculus with 11 samples.

Results

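Short-term haematopoietic stem cells (ST-HSCs) from hosts whose marrow niche lacked the chemokine Cxcl12 were compared with those from hosts with an intact niche, in hosts given cytarabine, doxorubicin and quizartinib. These were 6 of the 11 bulk RNA-seq libraries of the series, taken by the genotype and treatment in their titles: 3 CXCL12 KO libraries (titled Cre_pos: 257, 263 and 276) and 3 CXCL12 WT libraries (titled Cre_neg: 252, 262 and 266). Mice of each group carried a transplant of acute myeloid leukaemia (AML) marrow with Flt3-ITD and no Tet2, and the labels give C57BL/6j and bone marrow throughout. The other libraries, 3 WT and 2 KO from hosts given vehicle, entered the statistical fit and the test of whether the niche difference depended on treatment. The promoter that drives Cre, the cells that lose Cxcl12, the ages of the mice and whether a library came from 1 animal or a pool are not given in the sources used here. Nothing in the labels says that each library is its own animal, and the p-values then cover no more than the variation from library to library.

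CXCL12 is a chemokine made by stromal and endothelial cells of the marrow. It acts through the receptor CXCR4 on blood stem and progenitor cells and holds them in the niche. ST-HSCs give rise to the myeloid, lymphoid and erythroid lineages, and leukaemic cells occupy the same niche. Cytarabine blocks DNA synthesis, doxorubicin poisons topoisomerase II, and quizartinib inhibits the FLT3 kinase.

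The question of the comparison was whether treated ST-HSCs differed in gene expression when the niche lacked Cxcl12. The clearest difference was in genes of red blood cell formation, which had higher values in all 3 KO libraries. Genes of antigen presentation on MHC class II and of late neutrophils had lower values with the KO niche. Genes of ribosomes and of the respiratory chain had lower values in KO libraries 263 and 276, whereas library 257 lay near or above the WT libraries for them.

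Of 53700 genes in the table, 16639 passed the filter on low counts and were tested. No gene reached an adjusted p under 0.05 with edgeR's quasi-likelihood test (0% called), and the smallest adjusted p was 0.379. An unadjusted p under 0.05 was reached by 1769 genes (10.6%), 1187 with higher values with the KO niche (7.13%) and 582 with lower values (3.5%). With upper-quartile scaling the same 2 counts were 773 and 761. Every KO library lay above every WT library for 1615 genes (9.71%) and below for 1590 genes (9.56%). The median log2 fold change over all genes was 0.10, with 8961 genes higher and 7665 lower. Counts of gene list members past these marks are to be read against these percentages. A difference here is always KO minus WT on the log2 scale with its standard error. DESeq2's Wald test called 249 genes and limma voom with quality weights called 4375. On simulated counts DESeq2 made 68 false calls, and edgeR and limma voom made 2 each. The simulation held no library that stood apart from its group.

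Gene counts ran from 22.4 to 31.1 M in the 6 libraries. Library 257 stood apart in reads outside annotated genes, which were 30.4% of its reads against 5.98% to 16.6% in the other 5. Spearman's rho over all genes tested was 0.949 between KO libraries 263 and 276, 0.914 and 0.885 between 257 and these, and 0.925 to 0.946 between 257 and the WT libraries. Between the WT libraries and 263 it was 0.887 to 0.929, and between them and 276 it was 0.874 to 0.907. Without library 257, the same edgeR fit of 16341 genes called 716 genes higher (4.38%) and 797 lower (4.88%) with the KO niche. Calls from that fit, with 2 KO libraries, are named as such below.

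The sorted cells were checked against markers of their label and of other cell types. The summed level of 11 stem and progenitor markers was 1099 to 1716 CPM (gene counts scaled to library size) in the WT libraries and 829 to 1575 CPM in the KO libraries. Most of that sum was Cd48, Cd34, Ly6a and Flt3, and 8 of the 11 markers had higher and 3 lower values with KO. Granulocyte markers summed to far more, 19516, 27831 and 107597 CPM in WT libraries 252, 262 and 266 and 22025, 7528 and 18643 CPM in KO libraries 257, 263 and 276. Erythroid markers summed to 481, 195 and 501 CPM with WT and 37029, 18179 and 87358 CPM with KO, which do not overlap. Of 6 monocyte and macrophage markers, 3 had higher and 3 lower values with KO. Their sum was 3375 to 4508 CPM with WT and 583 to 2483 CPM with KO, and most of it was Ly6c2. The sums over 4 B cell markers reached at most 9.60 CPM in any of the 6 libraries. The part of such cells in the results below was not tested. In bulk RNA, a change in the number of cells of a type and a change in RNA per cell cannot be told apart.

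**Figure D1:**
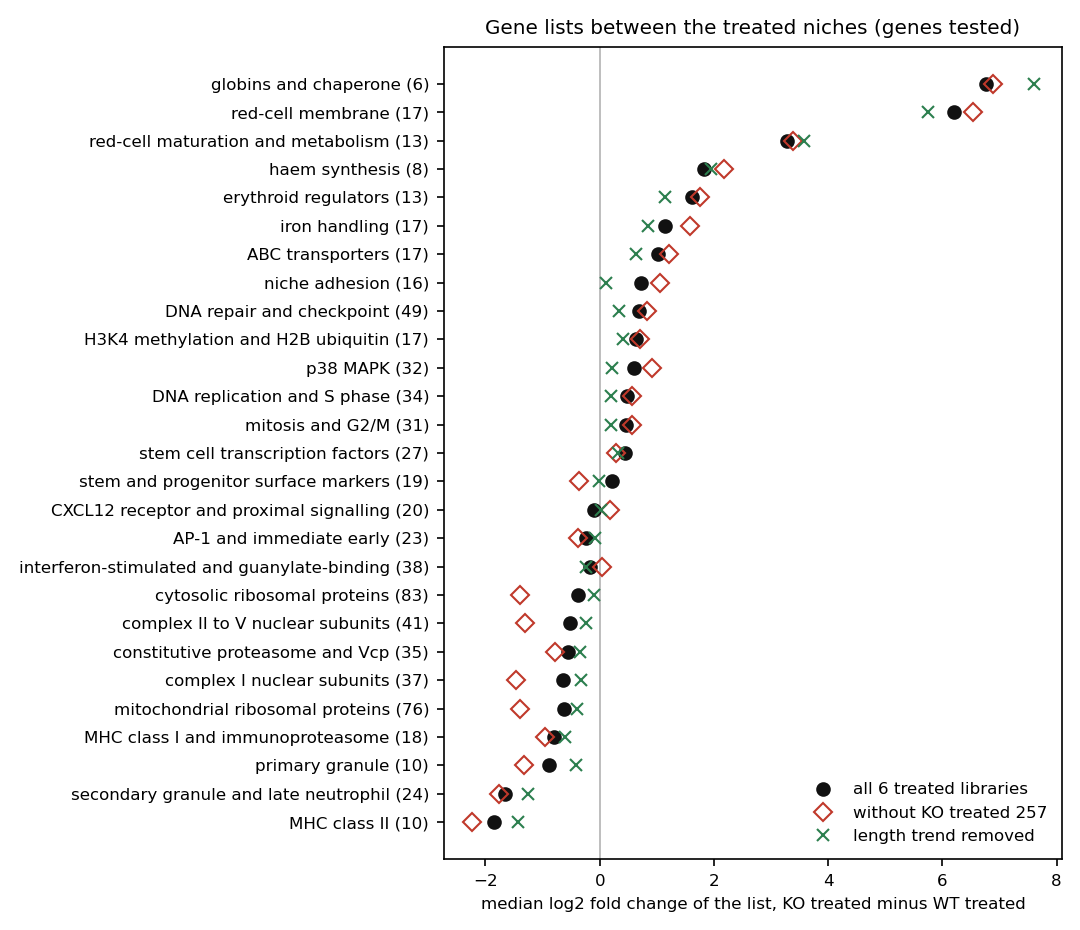
Median log2 fold change (horizontal axis, KO treated minus WT treated) of 27 gene lists, with the number of genes tested in brackets. Filled circles are all 6 treated libraries, open diamonds the fit without KO library 257, and crosses the fit with the trend on transcript length removed. Globin and red-cell membrane genes lie furthest right (6.76 and 6.21) and MHC class II genes furthest left (-1.84), and ribosomal and respiratory chain lists move left without library 257.

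Red blood cells form through erythroid progenitors under the transcription factors GATA1 and KLF1 and the hormone receptor EPOR. The maturing cells make haem, globins and a membrane skeleton, take up iron, and discard most other proteins. All 17 tested genes of the red-cell membrane had higher values with the KO niche, with a median difference of 6.21, and 16 of them had an unadjusted p under 0.05 and KO libraries above every WT library. All 8 haem synthesis genes (median 1.82, 7 at that p) and all 6 tested globin genes (median 6.76, 6 at that p) had higher values too. Of the 13 erythroid regulators, 12 had higher values (median 1.62) and 6 had an unadjusted p under 0.05. The 13 genes of red-cell maturation and metabolism all had higher values (median 3.28, 9 at that p). The share of all genes with higher values at that p was 7.13%. No gene of these lists passed edgeR's adjusted test over all genes. DESeq2's Wald test with all libraries gave adjusted p of 2.0e-10 for Alas2, 3.5e-06 for Slc4a1 and 6.7e-05 for Klf1. Those of limma voom were 0.0111, 0.0154 and 0.0190. Gata1 was called in none of the 22 alternative settings. Without library 257, edgeR called 13 membrane, 4 haem, 3 globin, 3 regulator and 7 maturation genes higher, against 4.38% of all genes. Without KO library 276, which was the highest in 16 of the 17 membrane genes, the membrane median was 4.98.

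Haem synthesis starts with Alas2 in erythroid cells. In the promoter windows of RefSeq (build GRCm38.p6, 300 bases with 250 before the start), the motif read by GATA factors was searched on both strands as GATA with A or T before it and A or G after it. It was present in 25 of the 42 genes of the erythroid lists that had a window (59.5%), against 2556 of 11078 genes tested with a window (23.1%) and 29.8% of all 32851 windows. A match is a string of letters and no measure of binding. The windows of Alas2 (ENSMUSG00000025270.14, chrX:150547167-150547466, plus strand) and Trim10 (ENSMUSG00000073400.7, chr17:36869324-36869623, plus strand) are shown because these erythroid genes stood among the largest differences below. Capitals mark the motif, which both hold on the minus strand.
Alas2: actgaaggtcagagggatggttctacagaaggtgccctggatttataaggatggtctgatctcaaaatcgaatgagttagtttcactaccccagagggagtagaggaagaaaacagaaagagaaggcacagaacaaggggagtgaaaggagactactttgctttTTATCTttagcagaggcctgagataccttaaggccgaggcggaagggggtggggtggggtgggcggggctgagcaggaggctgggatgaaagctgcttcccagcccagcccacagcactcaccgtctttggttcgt
Trim10: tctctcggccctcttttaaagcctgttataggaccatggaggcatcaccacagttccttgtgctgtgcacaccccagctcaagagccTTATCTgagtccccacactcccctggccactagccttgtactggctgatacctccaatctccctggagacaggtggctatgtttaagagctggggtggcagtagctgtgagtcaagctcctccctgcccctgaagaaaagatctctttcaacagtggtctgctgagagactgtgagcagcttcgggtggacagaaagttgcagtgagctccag

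Values are given for WT libraries 252, 262 and 266 and then for KO libraries 257, 263 and 276, always in this order. Alas2, the erythroid enzyme of the first step of haem synthesis, had 3.53, 2.93 and 5.21 CPM with WT and 152, 633 and 2955 CPM with KO. The groups did not overlap, and KO library 276 was the highest. The difference was 8.33 ± 1.65 (SE) with an edgeR adjusted p of 0.379, and 8.85 ± 1.61 with an adjusted p of 0.0125 without library 257. Fech, which inserts iron into protoporphyrin to form haem in the last step, had 27.1, 38.5 and 23.2 CPM with WT and 88.4, 291 and 1195 CPM with KO (difference 4.15 ± 0.86). Cpox, an enzyme of the steps between, differed by 2.50 ± 0.69, again with KO libraries above every WT library. In Alas2, Fech and Cpox the order among KO libraries was 257, 263, 276 from low to high.

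Globin reads followed the same division of the libraries. Hba-a1, an alpha-globin gene, had 191, 78.3 and 259 CPM with WT and 17243, 6937 and 32689 CPM with KO. Hbb-bs, an adult beta-globin gene, had 282, 104 and 231 CPM with WT and 19320, 10204 and 49424 CPM with KO. No WT library came near a KO library for either gene, and 263 was the lowest KO library for both. Hbb-bt differed by 6.78 ± 1.55 and Hba-a1 by 6.75 ± 1.59, with an edgeR adjusted p of 0.383 for each. Near-identical globin copies share reads, so the split between these genes is uncertain, while their sum was 3.97%, 2.84% and 10.5% of gene counts in the KO libraries and 0.0264% to 0.0635% in the WT libraries. Hbq1b, a theta-globin gene, had 0.278, 0.610 and 0 CPM with WT and 22.8, 16.7 and 68.5 CPM with KO.

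Genes of the red-cell membrane separated the groups in nearly all members. Slc4a1, the anion exchanger band 3, had 1.11, 0.488 and 1.497 CPM with WT and 45.0, 196 and 1222 CPM with KO (difference 8.88 ± 1.84). Rhd, a Rhesus blood group gene, had 1.64, 4.35 and 3.36 CPM with WT and 113, 104 and 474 CPM with KO (difference 6.21 ± 1.22). In both genes, library 276 was the highest and the groups were far apart. Kel, the Kell blood group gene, had 0, 0.0814 and 0.103 CPM with WT and 9.65, 22.7 and 111 CPM with KO. Epb41, protein 4.1 of the membrane skeleton, is also used outside the red cell, and it differed by 3.69 ± 0.74 from a WT mean of 17.3 ± 4.45 (SD, n = 3) to a KO mean of 224 ± 236 CPM. Without library 257 the edgeR adjusted p was 0.0134 for Slc4a1 and 0.0162 for Rhd.

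The regulators showed a smaller share past the mark. Klf1, a transcription factor that switches on globin and membrane genes, had 1.92, 5.53 and 0.103 CPM with WT and 55.1, 30.6 and 189 CPM with KO (difference 5.17 ± 1.20). Epor, the erythropoietin receptor, had 0.773, 2.40 and 0.207 CPM with WT and 14.3, 9.55 and 57.4 CPM with KO (difference 4.58 ± 1.07). Gata1 had 2.82, 7.45 and 3.15 CPM with WT and 18.7, 13.3 and 83.5 CPM with KO (difference 3.11 ± 1.24). KO lay above WT in all 3 genes, with 263 the lowest KO library. Gata1 was not called without library 257 (edgeR adjusted p = 0.18), whereas Klf1 (0.0342) and Epor (0.0295) were.

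Trim10, an erythroid ubiquitin ligase whose promoter is shown above, had 0.557, 0.651 and 0.0516 CPM with WT and 23.4, 79.8 and 368 CPM with KO. It differed by 8.48 ± 1.42 (edgeR adjusted p = 0.379, and 0.00886 without library 257). Ube2o, a ubiquitin-conjugating enzyme that remodels the proteome of reticulocytes, had 5.79, 3.46 and 4.54 CPM with WT and 21.6, 60.3 and 197 CPM with KO. Bpgm, which makes the allosteric effector 2,3-bisphosphoglycerate, differed by 5.07 ± 1.04, and Xpo7, a nuclear exporter used in late erythroid cells, by 2.67 ± 0.58. These genes shared the order 257, 263, 276 among the KO libraries. In the iron list, 14 of 17 genes had higher values (median 1.15), but 3 had an unadjusted p under 0.05, against 7.13% of all genes. Of these, 2 carry iron into the cell and the mitochondrion: Tfrc, the transferrin receptor, differed by 3.37 ± 0.90, and Slc25a37, mitoferrin 1, by 3.93 ± 0.82.

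Other genes among the largest differences lay outside these lists. Tent5c, a poly(A) polymerase, differed by 6.90 ± 1.44, and Tmcc2 by 5.73 ± 1.35. Apol11b, an apolipoprotein L gene, had 1.33, 2.12 and 1.34 CPM with WT and 79.5, 171 and 1178 CPM with KO. All of these had KO libraries above every WT library. Bcl2l1, which encodes the survival protein BCL-XL, had 14.7, 15.4 and 18.6 CPM with WT and 30.5, 60.3 and 154 CPM with KO (difference 2.33 ± 0.62). Of the 17 tested genes of the BCL2 family list, 1 (Bcl2l1) was higher at an unadjusted p under 0.05, against 7.13% of all genes. Lower values were seen in 12 of the 17. A list of 9 markers of the macrophages that surround erythroid cells, added after the values were seen, summed to 194 to 329 CPM with WT and 204 to 373 CPM with KO, and these ranges overlap.

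**Figure D2:**
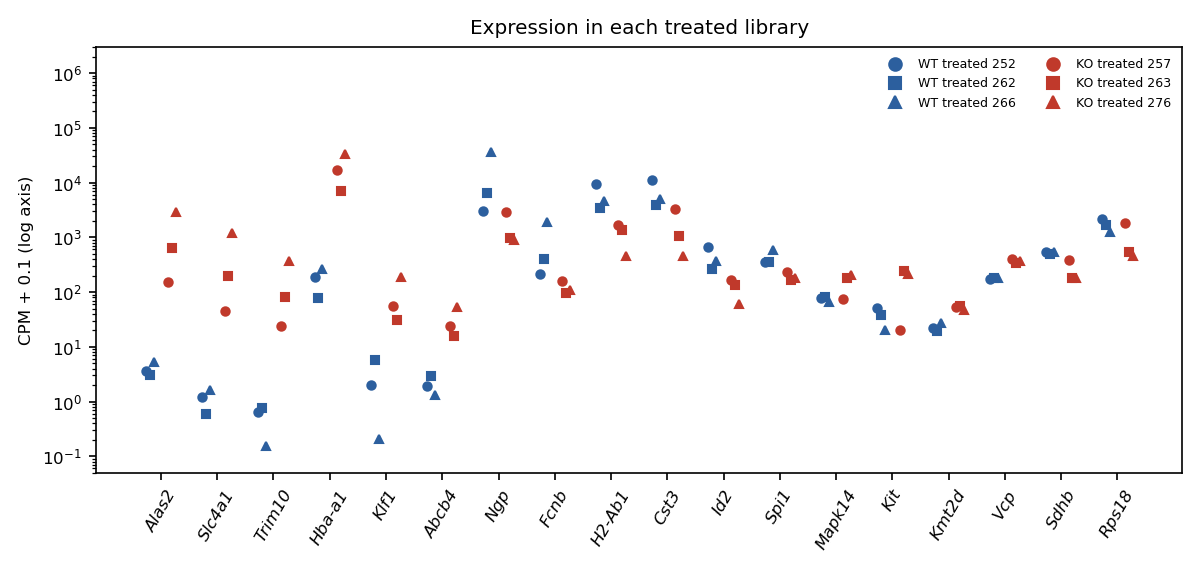
Expression of 18 named genes in the 6 treated libraries, in CPM plus 0.1 on a log axis. Blue symbols are WT and red symbols KO, with 1 symbol shape per library. Erythroid genes such as Alas2 and Slc4a1 separate the groups, whereas for Kit, Mapk14 and Rps18 library 257 lies with the WT libraries.

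Neutrophils store their antimicrobial proteins in primary granules, made early, and secondary granules, made late. Of the 24 late neutrophil genes, 18 had lower values with the KO niche (median -1.66). At an unadjusted p under 0.05, 14 had lower and 2 higher values, against 3.5% and 7.13% of all genes. KO libraries lay below every WT library in 4 of the 24, against 9.56% of all genes. The list's median was -0.56 without WT library 266, the library with the highest granulocyte markers. Ngp, a neutrophil granule protein, had 3005, 6417 and 35558 CPM with WT and 2873, 989 and 896 CPM with KO (difference -3.24 ± 0.98). Chil3, a chitinase-like protein of neutrophils and macrophages, had 563, 2129 and 10601 CPM with WT and 473, 345 and 395 CPM with KO (difference -3.45 ± 0.91). Fcnb, a ficolin of the lectin complement pathway, had 215, 400.1 and 1883 CPM with WT and 158, 95.0 and 107 CPM with KO. The groups did not overlap in these 3 genes, although KO library 257 lay close to WT library 252. The edgeR adjusted p was 0.401 for Ngp and 0.383 for Chil3 and for Fcnb.

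S100a9, a subunit of calprotectin, had 5850, 7518 and 32340 CPM with WT and 6215, 1800 and 2029 CPM with KO, and Camp, the cathelicidin precursor, had 1401, 1874 and 9877 CPM with WT and 1934, 262 and 278 CPM with KO. In both, library 257 overlapped the WT libraries and the 2 other KO libraries lay below them. Without 257, edgeR called Camp lower (-4.02 ± 0.999, adjusted p = 0.0359) but not S100a9 (adjusted p = 0.0512). Orm1, an acute phase protein outside these lists, had 10.2, 14.9 and 96.9 CPM with WT and 10.2, 1.17 and 2.19 CPM with KO. The 10 primary granule genes had a median of -0.89, with 2 lower at an unadjusted p under 0.05, against 3.5% of all genes. Elane, neutrophil elastase, had 5281, 6182 and 14642 CPM with WT and 6171, 684 and 3199 CPM with KO, which overlap. Cst7, a cystatin stored in granules, had 411, 464 and 481 CPM with WT and 362, 85.0 and 182 CPM with KO (difference -1.11 ± 0.46).

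Other myeloid genes, 2 transcription factors among them, had lower values as well. Spi1, which encodes PU.1, had 358, 355 and 596 CPM with WT and 230, 165 and 179 CPM with KO (difference -1.19 ± 0.33, edgeR adjusted p = 0.383). Irf8, a factor of monocytes and dendritic cells, had 656, 413 and 439 CPM with WT and 219, 283 and 335 CPM with KO (difference -0.85 ± 0.34). Ly6c2, a surface protein of monocytes and their progenitors, had 3210, 3066 and 4210 CPM with WT and 2235, 332 and 1316 CPM with KO. KO libraries lay below every WT library in all 3. Without library 257, Spi1 was called (adjusted p = 0.0323) and Ly6c2 and Irf8 were not (0.0584 and 0.261). The list of 23 monocyte and macrophage genes was divided, 12 higher and 11 lower, with a median of 0.05.

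MHC class II molecules present peptides to CD4 T cells. They are made by dendritic cells, B cells and macrophages, and by some progenitors, under the coactivator CIITA and a promoter that includes a Y box. The Y box was searched as CTGATTGG on both strands. It was found in 3 of the 7 MHC class II genes with a RefSeq window (42.9%), in 711 of 11078 genes tested (6.42%) and in 4.10% of all windows. The window of H2-Aa (ENSMUSG00000036594.16, chr17:34287774-34288073 of GRCm38.p6, minus strand) is shown with the Y box in capitals, because H2-Aa is the alpha chain gene whose values follow.
H2-Aa: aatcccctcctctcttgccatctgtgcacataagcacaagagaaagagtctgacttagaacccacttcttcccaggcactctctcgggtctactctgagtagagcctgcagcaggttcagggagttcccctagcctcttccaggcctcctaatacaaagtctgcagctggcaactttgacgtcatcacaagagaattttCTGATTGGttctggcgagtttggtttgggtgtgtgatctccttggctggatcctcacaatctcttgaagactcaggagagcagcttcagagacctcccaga

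All 10 MHC class II genes had lower values with the KO niche (median -1.84). Of these, 7 had an unadjusted p under 0.05, against 3.5% of all genes tested, and 7 had KO libraries below every WT library, against 9.56%. H2-Aa had 5590, 1761 and 2263 CPM with WT and 1074, 665 and 206 CPM with KO (difference -2.31 ± 0.90). H2-Ab1, its beta chain partner, had 9274, 3364 and 4698 CPM with WT and 1658, 1377 and 450.2 CPM with KO (difference -2.31 ± 0.82). Cd74, the invariant chain that escorts them, had 6881, 2695 and 3639 CPM with WT and 1346, 1628 and 508 CPM with KO. WT library 252 was the highest and KO library 276 the lowest in each of the 3. H2-Eb1 differed by -2.34 ± 0.97, and H2-DMa, which loads the peptides, by -1.55 ± 0.53. The edgeR adjusted p was 0.432 for H2-Ab1, 0.434 for H2-Aa, 0.446 for H2-Eb1 and 0.428 for H2-DMa, and of these only H2-DMa was called without library 257 (adjusted p = 0.0363). Ciita itself had 98.6, 22.1 and 20.0 CPM with WT and 33.2, 21.5 and 10.9 CPM with KO, which overlap (difference -1.10 ± 0.89), and its difference was 0.054 without WT library 252.

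MHC class I presents peptides on nearly all cells, after they are cut by the immunoproteasome. Of 18 genes of this list, 15 had lower values (median -0.80), 7 at an unadjusted p under 0.05, against 3.5% of all genes. Without library 257, edgeR called 7 lower, against 4.88% of all genes. H2-K1, a heavy chain, had 2171, 2401 and 1666 CPM with WT and 1283, 1089 and 1004 CPM with KO (difference -0.89 ± 0.32). H2-T23, a non-classical heavy chain, differed by -1.14 ± 0.43, with KO libraries below every WT library. Psmb9, an immunoproteasome subunit, had 899, 529 and 555 CPM with WT and 508, 163 and 117 CPM with KO (difference -1.33 ± 0.51). Erap1, which trims peptides in the endoplasmic reticulum, had higher values in KO libraries 263 and 276 (114 and 134 CPM) than in 257 (13.97 CPM) or in WT (25.9, 33.3 and 20.8 CPM). The 38 interferon-stimulated genes had a median of -0.16, with 2 higher and 0 lower at an unadjusted p under 0.05, against 7.13% and 3.5% of all genes.

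Genes shared with dendritic cells had lower values beside these. Cst3, cystatin C, had 10969, 3846 and 4999 CPM with WT and 3352, 1064 and 454 CPM with KO (difference -2.02 ± 0.76). Id2, a repressor used in dendritic and innate lymphoid cells, had 656, 261 and 367 CPM with WT and 167, 132 and 61.5 CPM with KO (difference -1.83 ± 0.51). The KO libraries lay below every WT library for both, and edgeR called both without library 257 (adjusted p = 0.0327 for Cst3 and 0.0472 for Id2). A list of 14 dendritic cell genes that holds Cst3, Id2 and Irf8, added after the values were seen, had 12 members with lower values. The 3 of them at an unadjusted p under 0.05 were Cst3, Id2 and Irf8 themselves, so that count adds nothing to their values. Most of the list's summed level was also Cst3, Id2 and Irf8, and the part of dendritic cells in the MHC class II values was not tested. Bcl2a1d, a BCL2 family member of myeloid cells, differed by -2.63 ± 0.84, with 88.7, 18.5 and 15.0 CPM with WT and 8.27, 8.84 and 2.63 CPM with KO. Hsd11b1, which activates glucocorticoids, had 44.5, 82.7 and 279 CPM with WT and 38.8, 21.9 and 36.3 CPM with KO.

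**Figure D3:**
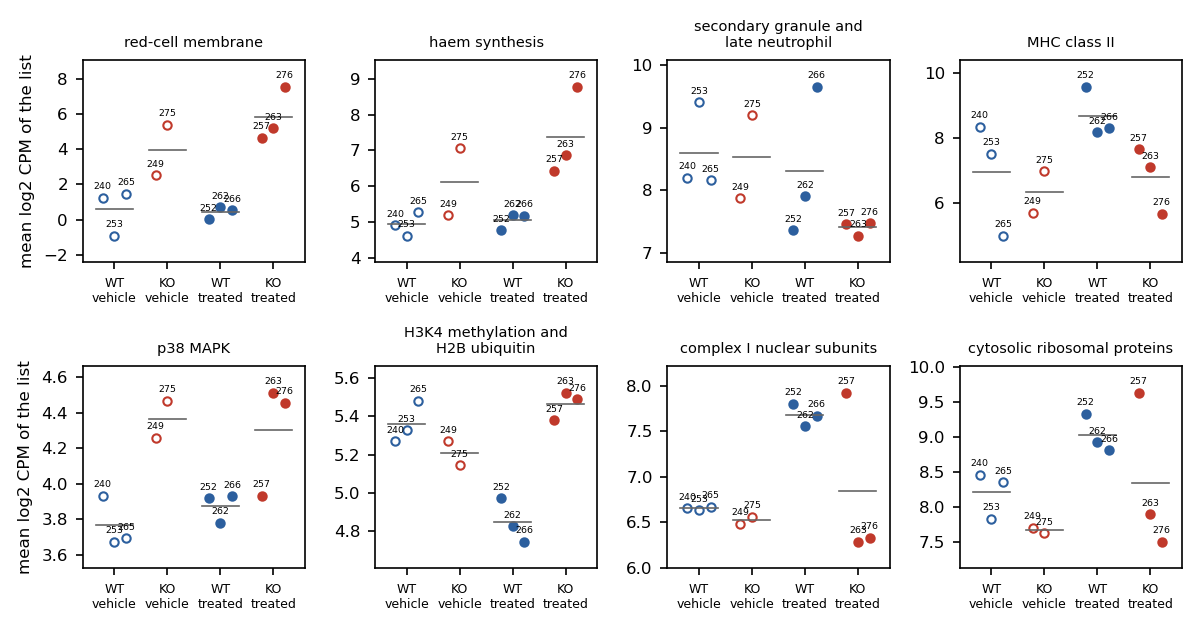
Mean log2 CPM of 8 gene lists in each of the 11 libraries, numbered by library. Open circles are vehicle hosts and filled circles treated hosts, blue is WT and red KO, and each line is the group mean. Red-cell membrane scores were 4.65 to 7.55 in KO treated libraries and 0.04 to 0.70 in WT treated libraries, and for complex I subunits library 257 (7.92) lies above the WT libraries (7.55 to 7.80) while 263 (6.29) and 276 (6.33) lie below them.

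RNA levels of genes for surface markers of stem and progenitor cells, with Mecom beside them, were compared next. Kit, the receptor of stem cell factor, had 50.7, 37.7 and 20.5 CPM with WT and 20.5, 243 and 210.1 CPM with KO. Library 257 lay at the lowest WT value, and the 2 other KO libraries lay above every WT library. Without 257, edgeR called Kit higher (2.64 ± 0.34, adjusted p = 0.00864). Ly6a, which encodes Sca-1, had 433, 128 and 70.0 CPM with WT and 159, 64.2 and 29.7 CPM with KO, which overlap. Cd48, a marker of multipotent progenitors, had 600, 900.5 and 658 CPM with WT and 578, 286 and 191 CPM with KO (difference -1.03 ± 0.45). Ly6e, a relative of Sca-1, had 2593, 2213 and 2087 CPM with WT and 1515, 631 and 984 CPM with KO (difference -1.14 ± 0.38), and edgeR called Cd48 (adjusted p = 0.0361) and Ly6e (0.0178) lower without 257. Cd34 overlapped between the groups, with a difference of 0.33 ± 0.54 that was -0.074 without KO library 263. Mecom, which encodes the stem cell factor EVI1, had 7.89, 8.38 and 28.7 CPM with WT and 113, 50.2 and 10.9 CPM with KO, which overlap. The 19 stem and progenitor surface markers had a median of 0.22. At an unadjusted p under 0.05, 1 was higher and 2 were lower, against 7.13% and 3.5% of all genes.

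The deleted gene is a product of the niche, so its level in sorted blood cells does not check the genotype. Cxcl12 had 0.866, 1.59 and 0.826 CPM with WT and 2.90, 1.20 and 4.63 CPM with KO, which overlap. Cxcr4, its receptor, had 53.5, 71.8 and 68.7 CPM with WT and 34.3, 39.9 and 82.3 CPM with KO, which overlap as well (difference -0.31 ± 0.54, edgeR adjusted p = 0.906). With the trend on transcript length removed, the difference of Cxcr4 was 0.10. Of 20 genes of the receptor and its proximal signalling, 9 had higher and 11 lower values (median -0.10). Rac2, a GTPase of blood cells downstream of CXCR4, had 829, 1267 and 2316 CPM with WT and 749, 557 and 653 CPM with KO (difference -1.17 ± 0.41). Dock2, an exchange factor for Rac, had 85.9, 53.2 and 36.8 CPM with WT and 62.3, 202 and 157 CPM with KO. Pik3cg, the kinase PI3K gamma, had 37.8, 26.98 and 13.1 CPM with WT and 21.9, 87.5 and 114 CPM with KO. For Dock2 and Pik3cg, library 257 lay within the WT range, and edgeR called both higher without it (adjusted p = 0.0175 and 0.0159).

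Niche adhesion genes encode integrins and related receptors that bind stem cells to the matrix. Of 16 tested, 10 had higher values (median 0.72, and 0.12 with the length trend removed). At an unadjusted p under 0.05, 3 were higher, against 7.13% of all genes. Itga5, a subunit of the fibronectin receptor, had 7.64, 3.34 and 3.51 CPM with WT and 8.69, 34.2 and 40.6 CPM with KO (difference 2.52 ± 0.79). Stat5b, a transcription factor downstream of FLT3-ITD and of cytokine receptors, had 28.6, 29.8 and 19.3 CPM with WT and 30.1, 120.3 and 82.3 CPM with KO (difference 1.58 ± 0.44). In both, 257 lay just above the highest WT library and 263 and 276 well above it. The 15 genes of the FLT3 and STAT5 list had a median of 0.64, with 2 higher at an unadjusted p under 0.05, against 7.13% of all genes.

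p38 MAPK is a stress kinase that acts with MAPKAPK2 downstream of MAP3K kinases and the adaptor TAB1. Of 32 genes of this pathway, 22 had higher values (median 0.60) and 7 had higher values at an unadjusted p under 0.05, against 7.13% of all genes, while 1 had a lower value at that p. The median was 0.92 without library 257 and 0.21 with the length trend removed. Mapk14, p38 alpha, had 79.1, 80.0 and 65.1 CPM with WT and 74.7, 179 and 205 CPM with KO (difference 1.03 ± 0.37, edgeR adjusted p = 0.432). Mapkapk2 had 126, 145 and 127 CPM with WT and 108, 286 and 404 CPM with KO (difference 1.004 ± 0.44). Library 257 lay within the WT range for Mapk14 and below it for Mapkapk2, 263 and 276 lay above every WT library for both, and edgeR called both without 257 (adjusted p = 0.0109 and 0.0266). Mknk2, a kinase of the initiation factor eIF4E, had 50.03, 39.2 and 30.3 CPM with WT and 64.4, 105 and 139 CPM with KO (difference 1.37 ± 0.37). Tab1 differed by 1.22 ± 0.39 and Map3k4 by 1.11 ± 0.40, and for Mknk2, Tab1 and Map3k4 all KO libraries lay above every WT library. The 23 AP-1 and immediate early genes, outputs of stress kinases among others, had a median of -0.25, with 0 of them at an unadjusted p under 0.05.

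Genes of DNA copying and repair bear on the drugs given. Of 34 S phase genes 22 had higher values (median 0.48, 9 higher and 1 lower at an unadjusted p under 0.05), and of 31 G2/M genes 23 did (median 0.46, 7 higher and 0 lower at that p). With the length trend removed both medians were 0.20. Of all genes tested, 7.13% were higher and 3.5% lower at an unadjusted p under 0.05. Of 49 DNA repair genes 39 had higher values (median 0.68, 8 at that p), and 13 had KO libraries above every WT library, against 9.71% of all genes. Pold1, the catalytic subunit of DNA polymerase delta, had 52.1, 63.4 and 56.4 CPM with WT and 72.4, 178 and 181 CPM with KO (difference 1.33 ± 0.35). Parp1, a sensor of strand breaks, had 85.1, 81.1 and 80.4 CPM with WT and 111, 216 and 211 CPM with KO (difference 1.12 ± 0.32). Brca2, of homologous recombination, had 39.0, 30.4 and 35.2 CPM with WT and 59.7, 60.5 and 63.3 CPM with KO (difference 0.81 ± 0.31). The KO libraries lay above WT in all 3 genes and differed little among themselves for Brca2. Ddb1, an adaptor of a ubiquitin ligase that recognises ultraviolet damage, differed by 2.45 ± 0.52.

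Topoisomerase II is the target of doxorubicin. Top2a, the form of dividing cells, had 268, 207 and 256 CPM with WT and 410.2, 386 and 485 CPM with KO (difference 0.81 ± 0.28, and 0.27 with the length trend removed). Top2b, the form that resting cells also use, had 84.6, 70.7 and 62.4 CPM with WT and 86.8, 207 and 269 CPM with KO (difference 1.37 ± 0.38). The groups did not overlap for either gene, though 257 was close to WT for Top2b. The 20 genes of cytarabine and nucleotide handling were split evenly, 10 higher and 10 lower, with a median of -0.03. Of 17 ABC transporters, pumps that include exporters of drugs, 14 had higher values (median 1.03). At an unadjusted p under 0.05, 6 were higher, against 7.13% of all genes. Abcb4, a phospholipid exporter close in sequence to the drug pump P-glycoprotein, had 1.86, 2.89 and 1.24 CPM with WT and 23.4, 15.8 and 52.3 CPM with KO (difference 3.93 ± 0.70, edgeR adjusted p = 0.379).

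Chromatin regulators had higher values in most members. Of 17 genes of histone H3K4 methylation and H2B ubiquitination, 15 had higher values (median 0.63). At an unadjusted p under 0.05, 6 were higher, against 7.13% of all genes. Kmt2d, a methyltransferase of enhancers, had 21.9, 19.6 and 27.7 CPM with WT and 52.5, 55.1 and 47.4 CPM with KO (difference 1.16 ± 0.30). Rnf20, a ligase that attaches ubiquitin to H2B, had 28.8, 28.6 and 36.3 CPM with WT and 72.8, 52.7 and 56.3 CPM with KO (difference 0.96 ± 0.28). Library 257 belonged with the other KO libraries for both genes, and the edgeR adjusted p was 0.383 for each. Kdm5b, a demethylase of H3K4, differed by 1.21 ± 0.39. Dnmt1, the maintenance DNA methyltransferase, had 125, 106 and 101.3 CPM with WT and 189, 333 and 356 CPM with KO (difference 1.40 ± 0.29), and edgeR called it without 257 (adjusted p = 0.00757).

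Further genes named by the rule had higher values with the KO niche. Vcp, a segregase that pulls proteins out of complexes for the proteasome, had 173, 179 and 177 CPM with WT and 405, 334 and 367 CPM with KO (difference 1.06 ± 0.25). Ubtf, a factor of ribosomal DNA transcription, had 60.2, 60.1 and 67.7 CPM with WT and 137, 115 and 117 CPM with KO (difference 0.97 ± 0.27). Mybbp1a, a nucleolar protein, had 68.2, 57.2 and 46.9 CPM with WT and 164, 187 and 254 CPM with KO (difference 1.81 ± 0.33). In these 3 genes the KO libraries lay together and above WT, 257 included. Hk1, hexokinase 1, had 35.1, 37.4 and 32.7 CPM with WT and 59.8, 168 and 199 CPM with KO (difference 2.02 ± 0.41). Upf1, the helicase of nonsense-mediated decay, had 14.4, 14.2 and 14.7 CPM with WT and 26.2, 87.2 and 94.0 CPM with KO (difference 2.26 ± 0.46). For these genes 257 lay between WT and the other KO libraries. Ppp1r15a, which ends the translation block of the stress response, differed by 2.14 ± 0.65, Gclm, of glutathione synthesis, by 1.57 ± 0.45, Tgfb1 by 0.84 ± 0.29, and Rb1cc1, of autophagy initiation, by 1.11 ± 0.30.

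Ribosomes and the respiratory chain divided the KO libraries. Of 83 cytosolic ribosomal protein genes 73 had lower values (median -0.38), but 1 was lower at an unadjusted p under 0.05 and 0 had KO libraries below every WT library. The same shares over all genes were 3.5% and 9.56%. Library 257 was the highest KO library in 82 of the 83. Rps18, a protein of the small subunit, had 2150, 1690 and 1273 CPM with WT and 1859, 547 and 465 CPM with KO. Rpl34, of the large subunit, had 597, 375 and 367 CPM with WT and 414, 154 and 147 CPM with KO. Library 257 lay inside the WT range for both, and 263 and 276 lay under it. Ribosomal protein genes have many processed copies, and reads placed at several sites may be missing from their counts. Such reads were 30.0% in library 257, 19.0% in 263 and 27.8% in 276. In WT libraries 252, 262 and 266 they were 12.7%, 11.6% and 25.4%. Their part in the ribosomal values was not tested. Without 257, the median was -1.40 and edgeR called 55 of the 83 lower, Rps18 (-1.76 ± 0.26, adjusted p = 0.00886) and Rpl34 (-1.57 ± 0.27, adjusted p = 0.0107) among them. That fit called 4.88% of all genes lower.

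Mitochondrial genes encoded in the nucleus behaved alike. The median of 76 mitochondrial ribosomal genes was -0.63 with all libraries and -1.39 without 257, with 42 called lower then. Of 37 complex I subunits 36 had lower values (median -0.63, and -1.47 without 257 with 30 called), and of 41 subunits of complexes II to V 40 had lower values (median -0.52, and -1.32 without 257 with 30 called). Of all genes, 4.88% were called lower without 257. Sdhb, the iron-sulphur subunit of complex II, had 537, 499.95 and 536 CPM with WT and 390.1, 183 and 181 CPM with KO (difference -1.06 ± 0.32). Ndufa9, of complex I, had 227, 260.3 and 251 CPM with WT and 165, 90.8 and 109 CPM with KO (difference -1.01 ± 0.30). Cycs, cytochrome c, had 458, 359.8 and 394 CPM with WT and 323, 102 and 147 CPM with KO (difference -1.09 ± 0.38). In these 3 genes even 257 lay below every WT library, and 263 and 276 lay lower still. Atp5c1, of the ATP synthase, differed by -0.91 ± 0.30 and Mrps17, of the mitochondrial ribosome, by -0.91 ± 0.34. The 13 genes of the mitochondrial genome itself had a median of 0.25, which was 1.90 without WT library 266, where mitochondrial reads were 15.0% of gene counts against 3.55% and 2.86% in the other WT libraries.

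Of the 35 genes of the constitutive proteasome and Vcp, 31 had lower values (median -0.56). At an unadjusted p under 0.05, 8 were lower and 3 higher, against 3.5% and 7.13% of all genes. KO libraries lay below every WT library in 12 of the 35, against 9.56% of all genes. Psmb2, a subunit of the catalytic core, had 727, 667 and 729 CPM with WT and 579, 195 and 222 CPM with KO (difference -1.09 ± 0.39). Psma1, of its outer ring, differed by -0.77 ± 0.29. Emp3, a membrane protein outside these lists, had 502, 483 and 543 CPM with WT and 584, 136 and 114 CPM with KO. Library 257 lay above WT and 263 and 276 far below, and edgeR called Emp3 lower without 257 (-2.03 ± 0.22, adjusted p = 0.00757). Emp3 was named for its small p in that fit, so the call followed from the choice and is no support for the division.

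Transcript length moved with this division. In the quintile of the shortest transcripts (median 832 bases), the median log2 difference from the WT mean was 0.06 in library 257, -0.90 in 263 and -1.16 in 276. In the quintile of the longest (median 6282 bases) it was 0.16, 0.81 and 0.76. Of the genes called without 257, 443 lower and 4 higher were in the quintile of the shortest transcripts, and 19 lower and 274 higher in that of the longest. Of the 716 genes called higher without 257, that library lay above the WT mean for 386 (53.9%) and above every WT library for 262 (36.6%). Of the 797 called lower, it lay below the WT mean for 357 (44.8%) and below every WT library for 231 (29.0%). With the length trend of each library removed, the medians were -0.09 for cytosolic ribosomal proteins, -0.32 for complex I and -0.40 for mitochondrial ribosomal proteins. The erythroid lists then had medians of 7.60 for globins, 5.75 for membrane genes, 3.57 for red-cell maturation and 1.95 for haem synthesis, the erythroid regulators 1.14 in place of 1.62, and MHC class II -1.43. With the length trend removed and 257 left out together, edgeR called 43 genes, 6 higher and 37 lower.

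**Figure D4:**
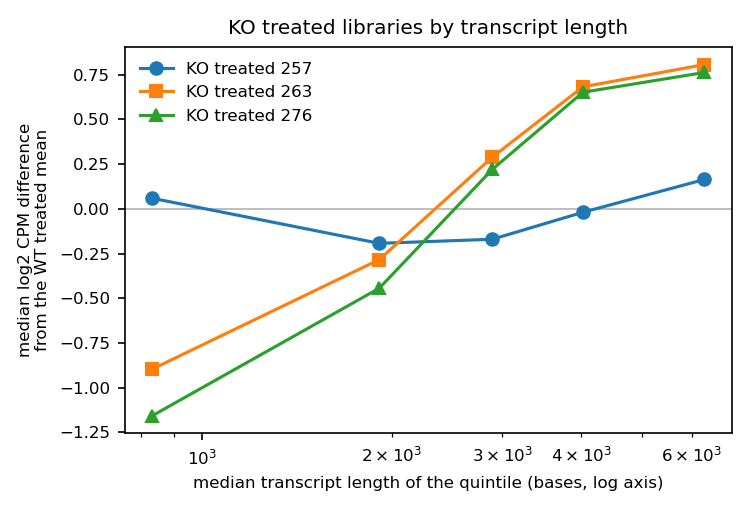
Median log2 CPM difference of each KO treated library from the mean of the WT treated libraries, in 5 groups of genes by transcript length (log axis, bases). Libraries 263 and 276 go from -0.90 and -1.16 for short transcripts to 0.81 and 0.76 for long ones, whereas 257 stays between -0.19 and 0.16.

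Whether the niche difference depended on treatment was tested as an interaction, the difference in treated hosts minus that in vehicle hosts. No gene reached an adjusted p under 0.05 with edgeR (0% called), and 1050 had an unadjusted p under 0.05 (6.31%). DESeq2 called 58. The vehicle comparison has 3 WT and 2 KO libraries, none of them shared with the treated comparison. The erythroid lists had positive medians there too, 4.15 for globins, 3.43 for membrane genes and 0.96 for haem synthesis, while the regulators stood at -0.12. Alas2 had 8.98, 1.11 and 3.33 CPM in the WT vehicle libraries 240, 253 and 265, and 6.22 and 407 CPM in the KO vehicle libraries 249 and 275. Slc4a1 had 6.01, 0.642 and 0.123 CPM there with WT and 5.28 and 175 CPM with KO. For both genes the high value in vehicle hosts was that of KO library 275, and the groups overlapped. Trim10 had 0.194, 0.117 and 0.369 CPM with WT and 2.64 and 43.2 CPM with KO there (difference 6.77 ± 1.47). Epor had 0.194, 0.175 and 0.123 CPM with WT and 5.15 and 16.7 CPM with KO (difference 5.97 ± 1.23). For Trim10 and Epor both KO vehicle libraries lay above every WT vehicle library, as in treated hosts. The interaction was 2.80 ± 1.89 for Alas2 (edgeR adjusted p = 0.80) and 3.62 ± 2.12 for Slc4a1 (0.78).

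Abcb4 had 8.79, 17.0 and 7.76 CPM in the WT vehicle libraries and 7.16 and 13.4 CPM in the KO vehicle libraries, with no separation, and its interaction was 4.05 ± 0.997 (edgeR adjusted p = 0.77). MHC class II genes had a median of -1.09 in vehicle hosts, and H2-Ab1 had 3359, 1637 and 393 CPM there with WT and 321 and 1430 CPM with KO. For megakaryocyte and platelet genes the order of the medians was the other way, 2.59 in vehicle and 0.25 in treated hosts. The high vehicle values were those of KO library 275, with a mean log2 CPM of the list of 4.96. KO library 249 (1.21) lay within the range of the WT vehicle libraries (-1.17 to 1.31). The late neutrophil median was -0.28 in vehicle and -1.66 in treated hosts. Complex I genes had a median of -0.13 and complexes II to V of 0.00 in vehicle hosts. These pairs of medians were not tested against each other.

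**Figure D5:**
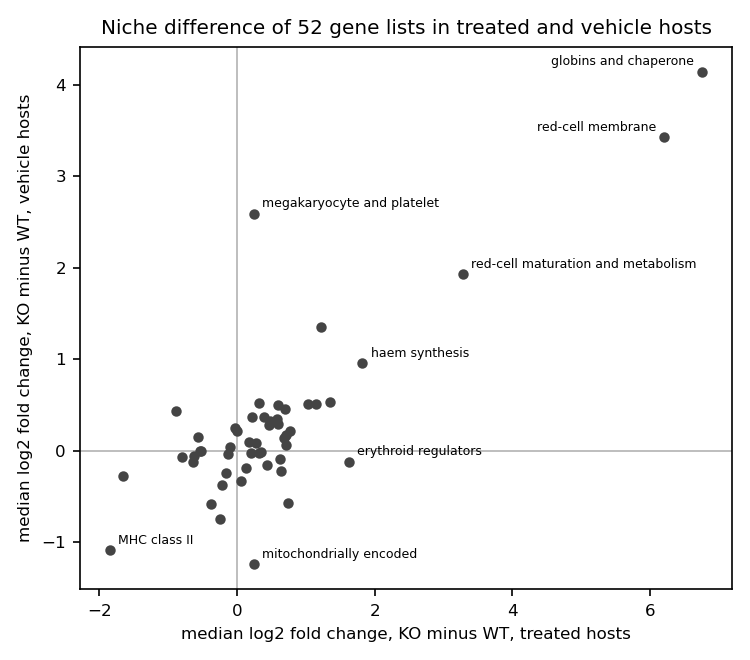
Median log2 fold change (KO minus WT) of 52 gene lists in treated hosts (horizontal axis) and vehicle hosts (vertical axis), each point 1 list. Globin and red-cell membrane lists lie at the upper right (6.76 and 4.15, 6.21 and 3.43), and megakaryocyte genes at 0.25 and 2.59. For megakaryocyte genes KO vehicle library 275 was high and KO vehicle library 249 lay within the WT vehicle range.

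Lists not described so far had medians between -0.54 (19 B lymphoid genes) and 1.36 (12 mast cell, basophil and eosinophil genes). In 8 of 28 autophagy genes and 8 of 35 genes of ribosome assembly and RNA polymerase I the values were higher at an unadjusted p under 0.05 (medians 0.35 and 0.27), and in 3 and 2 they were lower at that p. In glycolysis, 6 of 22 were higher and 3 lower at that p (median -0.13). The 27 p53 target genes had a median of 0.32 with 1 gene higher at that p, and the 26 genes of the ATF4 and unfolded protein response had a median of 0.40 with 2. The 27 stem cell transcription factors had a median of 0.44, with 1 higher and 1 lower at that p. Of all genes tested, 7.13% were higher and 3.5% lower at that p.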

How the data were processed

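Per the labels' protocols, RNA of the sorted ST-HSCs was amplified with SMARTer Ultra Low Input reagents before Nextera XT library preparation, which does not mark strand. The submitters' processing notes name STAR 2.7.9a, HTSeq (given as 0.6.7), Trim Galore 0.6.7, bcl2fastq and DESeq2 with no role for any, and build GRCm39. Values in the deposited file are unnormalized whole-number counts for 53700 genes. Its 5 summary lines of HTSeq entered neither library sizes nor tests. The annotation release and the strand setting are not given in the sources used here, so reads of overlapping genes may be misassigned. Symbols and transcript lengths came from GENCODE of an earlier build for 52093 genes, so no coordinates of the counted genes are printed. Reads carry no molecular identifiers.

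Testing used R 4.3.3 with edgeR 4.0.16. Genes passed filterByExpr, libraries were scaled with TMM, and 1 quasi-likelihood model with the robust option covered the 4 groups of 11 libraries (biological coefficient of variation 0.783). The contrasts were KO against WT in treated hosts, the same in vehicle hosts, and their difference. Adjusted p-values are Benjamini-Hochberg over all genes tested, and a gene was called under 0.05. The SE is the absolute log2 fold change over the square root of the F statistic. CPM is per TMM-scaled library. The 52 gene lists hold 1178 different gene symbols, some of them taken by a pattern in the name. Lists are described by counts and medians, with no set test. The libraries, lists and genes named were chosen with earlier results of these data known. Named genes came from a rule that takes the largest differences in each direction (12), the smallest p (10), up to 4 members of each list by p, a set of stem cell and niche genes, and 12 genes in each direction without library 257; Hbq1b, Gata1, Camp, Cd74 and Ciita were added after their values were seen, and so was Mecom. Lists of dendritic cell and erythroid island macrophage genes were also added then.

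Alternatives were DESeq2 and upper-quartile scaling, no filter, a mean CPM of at least 10, DESeq2 1.42.0, a fit with the 6 treated libraries alone, limma 3.58.1 voom with quality weights, the robust option off, reads outside genes as a covariate, the length trend removed (lowess, span 0.3), with and without library 257, and leaving out each library. The pipeline was tested on simulated counts of 16639 genes, 200 of them changed 4-fold or 16-fold in the KO treated libraries. Of the 4-fold and 16-fold changes, edgeR recovered 19% and 53% with 2 false calls. DESeq2 recovered 36% and 68% with 68 false calls, and limma voom 13% and 45% with 2.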

Additional observations from a re-analysis of the deposited data

Results flagged for a closer look

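Of the 97 genes named with values, 6 had niche differences of opposite directions in treated and in vehicle hosts. Their groups did not overlap in either. The share of all genes with this pattern was not computed, and many of the 97 were named for their difference in treated hosts. The count of 6 is therefore no result by itself. None of the 6 passed the adjusted interaction test, and vehicle hosts have 2 KO libraries. The interaction of Kmt2d, an H3K4 methyltransferase, was 1.83 ± 0.46 (log2, SE; edgeR adjusted p = 0.77). Its WT vehicle libraries 240, 253 and 265 had 58.7, 66.3 and 93.5 CPM and its KO vehicle libraries 249 and 275 had 40.9 and 50.6 CPM. Rnf20, the H2B ubiquitin ligase, had 63.5, 64.7 and 63.5 CPM with WT and 40.6 and 40.1 CPM with KO in vehicle hosts, and an interaction of 1.62 ± 0.42. Rb1cc1, of autophagy initiation, had 66.9, 67.4 and 58.3 CPM with WT and 35.7 and 34.4 CPM with KO there, and an interaction of 1.99 ± 0.46. All 3 genes had lower values with the KO niche in vehicle hosts and higher values in treated hosts.

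The reverse held for 3 genes. Sdhb, of respiratory complex II, had 187, 167 and 195 CPM with WT and 204 and 212 CPM with KO in vehicle hosts, and an interaction of -1.25 ± 0.48. Cycs, cytochrome c, had 118, 118 and 100.2 CPM with WT and 160.3 and 149.9 CPM with KO there, and an interaction of -1.56 ± 0.56. Psmb2, of the proteasome, had 183, 261 and 234 CPM with WT and 275 and 281 CPM with KO there, and an interaction of -1.39 ± 0.58. The edgeR adjusted p was 0.77 for each of the 6 genes. Such a pattern was looked for only in the genes named in the text.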

How the results depend on the processing

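No paired analysis was possible because the library numbers in the titles differ between the groups. The number of genes called with the KO niche in treated hosts was 43 without a filter, 249 with DESeq2, 4375 with limma voom, 43 with the length trend removed and library 257 left out together, and 0 to 1513 when each library was left out in turn, with calls only when 257 was left out. The number at an unadjusted p under 0.05 was 6390 with limma voom, 3148 with reads outside genes as a covariate, 884 with the length trend removed, and 718 to 3525 with each library left out; it was 1062 without WT treated 262, 777 without 266, 847 without KO treated 263, 718 without 276 and 3525 without 257. For the interaction, DESeq2 called 58 genes, and leaving out each library gave 0 to 1 (1 without WT vehicle 240). The cause of these differences was not tested. Of the 97 genes named with values, 94 kept their direction in the settings run and 67 were called without library 257. Of all genes, 4.38% were called higher and 4.88% lower without 257. Most of the 97 were chosen by size or p in these same data, some of them in the fit without 257. Both counts therefore followed in part from the choice and are no support for the differences. With the length trend removed and 257 left out together, the difference went from 0.81 to 0.061 for Top2a, from 0.96 to 0.12 for Rnf20, from 0.97 to 0.15 for Ubtf, from 0.81 to 0.19 for Brca2 and from -0.77 to -0.10 for Psma1. The exceptions in direction were Cxcr4 (0.10 with the length trend removed and 0.40 without 257 as well), Ciita (-1.54 to 0.054 with 1 library left out, the highest without WT treated 252) and Cd34 (-0.074 to 0.75 likewise, the lowest without KO treated 263). Of the list medians, 1057 of the values under these settings moved by less than the spread between replicates and 87 by more, and the latter are given here. 

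With the length trend removed, the median was 7.60 for globins and chaperone, 1.14 for erythroid regulators, 0.78 for stroma and endothelium, 0.21 for p38 MAPK, 0.12 for niche adhesion, 0.26 for TGF-beta and BMP, 0.37 for Tet and DNA methylation, 0.40 for H3K4 methylation and H2B ubiquitin, -0.0041 for p53 and targets, 0.099 for quiescence and CDK inhibitors, -0.22 for cytarabine and nucleotide handling, 0.33 for DNA repair and checkpoint, 0.079 for ribosome biogenesis and Pol I and 0.083 for sex-linked. With the length trend removed and library 257 left out together, the median was 7.99 for globins and chaperone, 1.14 for erythroid regulators, 1.32 for T and NK cell, 0.33 for stroma and endothelium, 0.36 for p38 MAPK, 0.034 for FLT3, STAT5 and targets, 0.22 for TGF-beta and BMP, 0.12 for H3K4 methylation and H2B ubiquitin, -0.81 for BCL2 family, -0.19 for quiescence and CDK inhibitors, 0.30 for DNA repair and checkpoint, -0.017 for ribosome biogenesis and Pol I and 0.22 for sex-linked. With limma voom, the median was -1.65 for primary granule, 0.49 for stroma and endothelium, 0.74 for H3K4 methylation and H2B ubiquitin, -0.58 for stem and progenitor surface markers, 0.59 for quiescence and CDK inhibitors, -1.28 for mitochondrial ribosomal proteins, -1.34 for complex I nuclear subunits, -1.20 for complex II to V nuclear subunits and -0.11 for heat shock. Among genes with a mean CPM of at least 10, the median was 1.09 for erythroid regulators, 0.95 for megakaryocyte and platelet, -0.18 for mast cell, basophil and eosinophil, -1.24 for T and NK cell, 0.59 for stroma and endothelium, 0.28 for ERK feedback, 0.76 for H3K4 methylation and H2B ubiquitin, 0.058 for p53 and targets, 0.11 for quiescence and CDK inhibitors and -0.23 for cytarabine and nucleotide handling. With only the 6 treated libraries, the median was 0.59 for stroma and endothelium. With reads outside genes as a covariate, the median was -1.03 for B lymphoid, 0.26 for FLT3, STAT5 and targets and -0.31 for stem and progenitor surface markers. With upper-quartile scaling, the median was 0.35 for p38 MAPK, 0.49 for H3K4 methylation and H2B ubiquitin, -0.23 for cytarabine and nucleotide handling and 0.095 for ribosome biogenesis and Pol I.

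Leaving out 1 library at a time, named in brackets, gave medians of 0.83 (276) to 2.18 (257) for haem synthesis, 4.98 (276) to 7.18 (262) for red-cell membrane, 0.29 (276) to 1.59 (257) for iron handling, -0.47 (263) to 0.46 (252) for megakaryocyte and platelet, -2.05 (252) to -0.56 (266) for secondary granule and late neutrophil and -0.47 (276) to 0.29 (257) for monocyte and macrophage. The same range was -0.31 (276) to 1.57 (265) for mast cell, basophil and eosinophil, 0.83 (263) to 1.43 (262) for stroma and endothelium, 0.37 (276) to 0.92 (257) for p38 MAPK, 0.14 (263) to 1.06 (257) for niche adhesion, -0.030 (263) to 0.64 (253) for FLT3, STAT5 and targets and 0.48 (262) to 1.22 (252) for ERK feedback. The same range was 0.28 (263) to 0.82 (252) for TGF-beta and BMP, 0.58 (266) to 0.82 (263) for H3K4 methylation and H2B ubiquitin, -0.45 (263) to 0.38 (262) for stem and progenitor surface markers, 0.024 (263) to 0.36 (262) for p53 and targets, 0.14 (276) to 0.56 (257) for S phase and -0.25 (276) to 0.084 (257) for cytarabine and nucleotide handling. The same range was -1.40 (257) to -0.021 (276) for cytosolic ribosomal proteins, -1.39 (257) to -0.36 (263) for mitochondrial ribosomal proteins, -1.47 (257) to -0.33 (263) for complex I nuclear subunits, -1.32 (257) to -0.22 (263) for complex II to V nuclear subunits, -0.29 (257) to 1.90 (266) for mitochondrially encoded and -0.15 (276) to 0.60 (257) for ATF4 and unfolded protein response. The same range was 0.12 (257) to 0.38 (263) for heat shock, -0.25 (276) to 0.32 (266) for NRF2 antioxidant, -0.0096 (276) to 0.61 (257) for autophagy and mitophagy and 0.12 (276) to 0.91 (252) for sex-linked. Depth was 22.4 to 31.1 M gene counts in the 6 libraries, so depth mainly limits genes counted near 0, such as Kel with WT.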
